A study of Drosophila melanogaster with 4 samples.

Results

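The Su(Hw) peaks described here lie close to another peak but apart from it, with 1 to 5 kb of DNA outside any peak in between. Su(Hw), short for Suppressor of Hairy-wing, is a DNA-binding zinc-finger protein of Drosophila. The members were chosen by the measured positions of the peaks: on the large chromosome arms and on chromosome 4, an interval was kept when the smaller of the gaps to the peaks on either side was above 1000 bp and at most 5000 bp. This rule took 772 of the 4993 listed intervals, or 16.2% of the 4760 on these arms. Of the others on the arms, 2140 had a neighbour within 1 kb and are called clustered, and 1848 had none within 5 kb and are called isolated.

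The assay was ChIP-seq, the sequencing of DNA that comes down with a protein from fixed chromatin, with an affinity-purified rabbit polyclonal antibody against Su(Hw). Chromatin came from whole embryos fixed with formaldehyde 16 to 24 h after laying, so binding in different cell types is summed. The labels give 2 libraries from the immunoprecipitate and 2 of input DNA. All 4 libraries share the strain Y cn bw sp, whose listed alleles are y[1], cn[1], bw[1] and sp[1] together with oc[R3.2]. The label also lists Gr22b[1], Gr22d[1] and CG33964[R4.2], and further Rh6[1], GstD5[1], MstProx[1], lab[R4.2] and LysC[1]. The result used here is 1 peak list without any value per library, so the depth is unknown and no spread between replicates could be given. Peaks are not replicates of a condition. All values below are therefore descriptions without a test, and intervals on shares and medians cover counting error only. The score is the value the authors' peak caller gave each interval, and which statistic it is was not stated. It was used to rank and describe peaks within the list. In some checks it also served to leave out weaker peaks before gaps were recomputed.

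Su(Hw) is best known for binding the cluster of sites in the gypsy retrotransposon, where with the proteins Mod(mdg4) and CP190 it forms an insulator. An insulator placed between an enhancer and a promoter blocks their contact. In transgenes, a pair of gypsy insulators between enhancer and promoter can lose this block, and the elements are thought to interact. Positions below are FlyBase release 5 coordinates as deposited, and no gene is named, since the annotation at hand was of another release.

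Among the 4754 gaps between neighbouring peaks on the arms, 602 were above 1 kb and at most 5 kb long. Another 1272 were at most 1 kb, and 2880 were longer than 5 kb. The number of gaps dropped steeply over the first kb and slowly after it, from 193 between 1 and 2 kb to 152, 142 and 115 in the next 1 kb steps. Between 5 and 6 kb it was 134. The limit of 1 kb thus lay near the foot of the steep part. At the limit of 5 kb the counts did not drop, with 50 gaps in the 0.5 kb bin below it and 79 in the bin above.

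**Figure D1:**
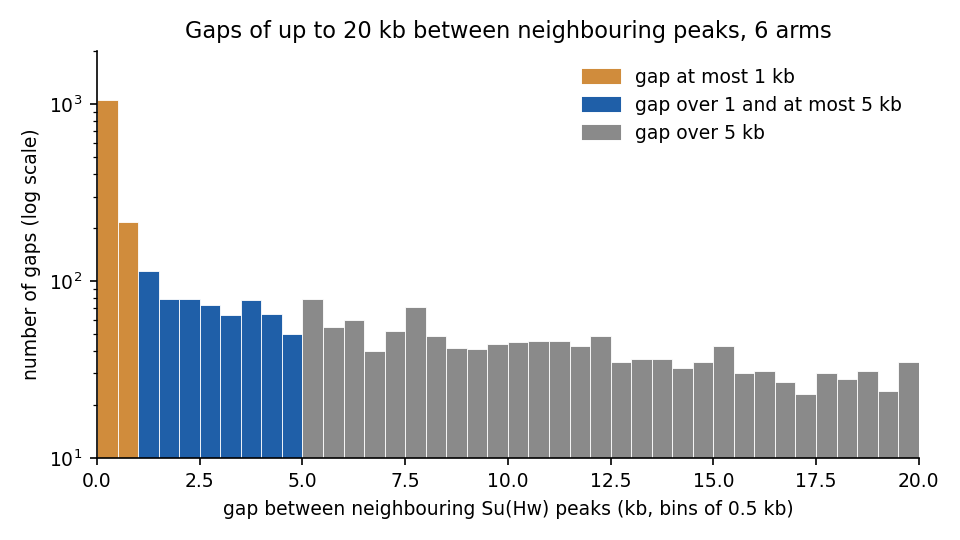
Number of gaps between neighbouring Su(Hw) peaks in bins of 0.5 kb (x axis, kb; y axis, number of gaps on a log scale), for gaps of up to 20 kb on the 6 arms. Colours mark gaps at most 1 kb, above 1 and at most 5 kb, and longer; the blue bars hold 602 of 4754 gaps.

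The members had a median gap of 2670 bp to their nearest neighbour, with quartiles of 1751 and 3698 bp. The gap on the far side is the larger by definition, and the rule set no limit on it, so a longer gap there is built into the choice. The far gap had a median of 20.1 kb (quartiles 9.32 and 42.5 kb), and it was longer than 10 kb for 565 members, or 73.2%. For 83 members, or 10.8%, it was also at most 5 kb. The nearest neighbour lay on the lower-coordinate side for 398 members and on the higher-coordinate side for 374.

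At the limits of the rule, the members just inside 1 kb were a peak on 2L from 15612475 to 15614905 (score 144.02) and one on 2R from 6881239 to 6881569 (score 8.74), each 1003 bp from its neighbour. Just outside, 2 peaks on 2R scoring 11.88 and 148.38 were separated by 1000 bp. At the upper limit, 2 members on X scoring 11.46 and 10.09 were 4997 bp apart, and 2 non-members on 3R scoring 501.06 and 165.69 were 5014 bp apart.

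Most members lay in mutual pairs, as did many other peaks. Each was the other's nearest neighbour in 265 mutual pairs, which held 530 members, or 68.7% (exact Clopper-Pearson 95% interval 65.2 to 71.9%). Both peaks of a pair enter together, so this interval is too narrow. Among the others on the arms, 407 such pairs held 814 of the 1848 isolated peaks, and the 2140 clustered intervals formed 909. Mutual pairing is thus common in the whole list and not particular to the members. A further 40 members had a member as nearest neighbour that itself lay closer to another peak. The other 202, or 26.2%, stood beside a clustered interval, that is, beside the outermost piece of a region with several intervals.

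Runs of consecutive gaps in this range were short. Counting every interval that borders such a gap, there were 519 runs, of which 449 joined 2 intervals, 58 joined 3, 11 joined 4 and 1 joined 5. Only members made up 240 of the runs, and 211 of these were simple pairs. The run of 5 lay on 3L from 1994771 to 2012509, over 17.7 kb, and its peaks scored 7.59, 36.35, 10.77, 43.05 and 76.14. None of these reached a score of 100. Among the runs of 4, the one with the highest score lay on 3L from 22313561 to 22323385, where a peak 4900 bp wide with a score of 193.99 was flanked by peaks scoring 6.58 on one side and 14.31 and 9.76 on the other. The next, on 3R from 16655964 to 16666776, had peaks scoring 10.77, 8.19, 7.59 and 185.68. Both runs thus held 1 strong and 3 weak peaks.

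In strength, the members resembled isolated peaks at the centre of the distribution and had fewer very strong ones. Their median score was 39.9 (95% interval 35.2 to 43.8), beside 40.0 (37.4 to 43.0) for isolated peaks, 22.3 (20.6 to 25.1) for clustered intervals and 33.7 for all intervals of the arms. A score of at least 100 was reached by 204 members, or 26.4% (23.3 to 29.7%). Over all intervals of the arms the share was 29.8%, and it was 29.4% among isolated and 31.4% among clustered ones. These shares are close, so the members' count at this limit shows little that is their own.

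Further up the scale the shares lay further apart. Scores of 300 or more were held by 58 members, or 7.51% (5.75 to 9.6%), against 11.3% (9.85 to 12.8%) of isolated and 15.2% (13.7 to 16.8%) of clustered intervals, and 12.4% of all intervals of the arms. Of the 100 strongest intervals on the arms, 7 were members, 30 isolated and 63 clustered. Of all intervals on the arms, 16.2% were members, 38.8% isolated and 45% clustered. Isolated peaks were thus also below their share, and only clustered intervals were above it. At the weak end, 30.1% of members scored under 20, as did 28.7% of isolated, 46.9% of clustered and 37.1% of all intervals. The score comes from the same peak calling as the interval edges that define the gaps, and how far the calling itself sets these shares was not tested.

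**Figure D2:**
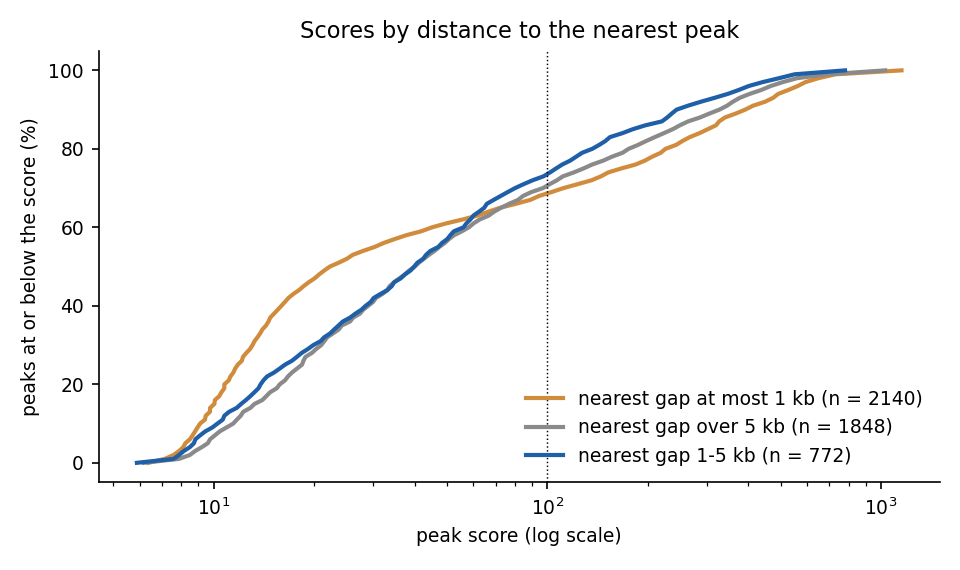
Cumulative share of peaks (y axis, %) at or below each score (x axis, log scale) for the 772 peaks with a nearest gap of 1 to 5 kb, the 1848 isolated and the 2140 clustered ones; the dotted line marks a score of 100. The blue line lies slightly below the grey one in score at the weak end, with 16.36 against 18.4 at percentile 25. The blue and grey lines meet near the median of about 40 and part above it. The clustered intervals are shifted to low scores in their lower part.

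Members were about as wide as isolated peaks. They had a median width of 740 bp (695 to 788 bp), isolated peaks 715 bp and clustered intervals 616 bp. Width and score rose together among members, with a Spearman correlation of 0.914 over 772 peaks, much as over all 4760 intervals (0.919); both come from one calling, so this is a description only. The narrowest member, of 200 bp, lay on 2L from 12283134 to 12283334 and scored 7.59. The widest, of 7156 bp, lay on 3R from 9917532 to 9924688, scored 378.38 and formed a mutual pair with a peak scoring 16.98 across a gap of 2384 bp.

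Within pairs, the peaks were mostly unequal in strength, as they were in pairs of isolated peaks. The stronger peak of a mutual pair scored a median of 3.2 times the weaker (95% interval 2.5 to 3.93), with medians of 80.1 and 18.4. The scores differed less than 2-fold in 88 of 265 pairs, or 33.2%, and at least 10-fold in 59, or 22.3%. In 407 mutual pairs of isolated peaks the median was 2.71 times (2.3 to 3.15), with 38.3% under 2-fold and 18.4% at least 10-fold. The stronger peak came first in coordinate in 126 pairs and second in 139. The weaker peak was also the narrower in most: the wider peak was the stronger in 224 pairs, with median widths of 1096 bp for the stronger and 444 bp for the weaker. The centres of paired peaks were 1.45 to 8.09 kb apart, with a median of 3.59 kb.

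A strong peak paired with another strong peak was uncommon. Both peaks scored at least 100 in 11 of 265 pairs, or 4.15% (exact 95% interval 2.09 to 7.31%). Exactly 1 did in 108 pairs, and neither in 146. Among 407 mutual pairs of isolated peaks, which are separated by more than 5 kb, both did in 51, or 12.5% (9.47 to 16.1%), and exactly 1 in 151. Paired members scored at least 100 less often to begin with, 24.5% against 31.1% of isolated paired peaks. Counted only over pairs with at least 1 such peak, the share with both was 9.24% (4.71 to 15.9%) among members and 25.2% (19.4 to 31.8%) among isolated pairs. In clustered pairs it was 3.32% (2.01 to 5.14%).

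The scores within member pairs had a Spearman correlation of -0.18 over 265 pairs, beside 0.0838 over 407 isolated and -0.473 over 909 clustered pairs. The points of one pair share the peak calling, and a value this weak is no finding by itself. It followed the choice of peaks: with gaps recomputed over the 2369 peaks scoring above the median, the 221 pairs at 1 to 5 kb had a correlation of 0.195. In that set the share of pairs with both scores at least 100, among pairs with at least 1, was 48.0% at 1 to 5 kb and 47.9% in isolated pairs. That set leaves out every partner scoring under the median, so the near equal shares there are partly built in. With each of the other settings tried, the members' share stayed below that of isolated pairs. It was 9.9% against 23.6% with an upper limit of 4 kb, and 16.6% against 24.1% with 10 kb. Without the lowest 10% of scores it was 12.1% against 29.3%, and with a score limit of 200 it was 3.33% against 14.9%.

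**Figure D3:**
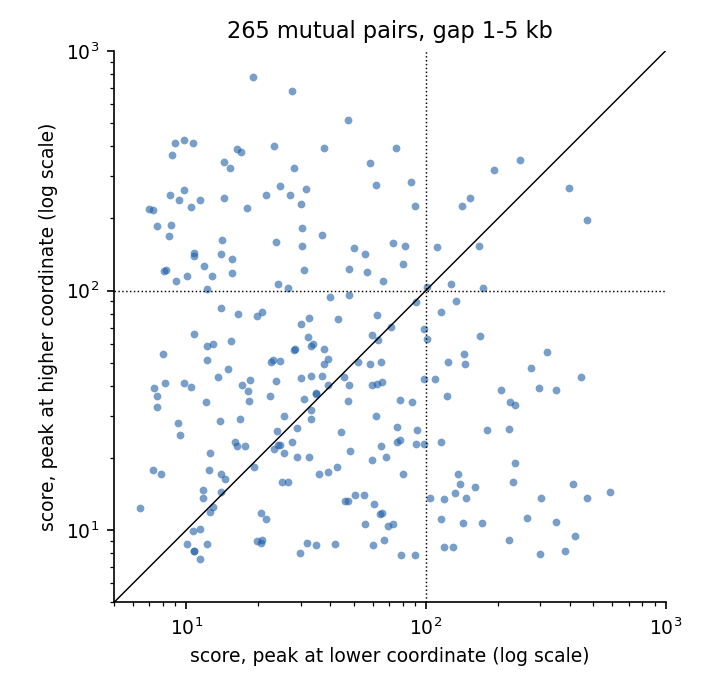
Scores of both peaks in each of 265 mutual pairs with a gap of 1 to 5 kb, the peak at the lower coordinate on the x axis and the other on the y axis (log scales); the solid line marks equal scores and dotted lines a score of 100. The upper right field holds 11 pairs, and 108 pairs lie in the upper left and lower right fields.

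The 11 pairs of strong peaks were found on each large arm and not on chromosome 4. The pair with the highest weaker score was on 3L, where a peak from 19638401 to 19640987 scored 395.5 and its partner from 19643098 to 19644829 scored 266.89, with a gap of 2.11 kb. The next was on 2R, from 10465875 to 10470721 (score 246.45) and from 10474714 to 10478069 (score 351.24), with a gap of 3.99 kb. A second pair on 2R, from 4893151 to 4896481 (score 468.14) and from 4900937 to 4903726 (score 196.36), was separated by 4.46 kb. These were broad peaks, 1731 to 4846 bp wide, and each pair spanned 6.43 to 12.2 kb in all.

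The fourth pair, again on 2R, joined a peak from 9843499 to 9845811 (score 192.85) to one from 9847274 to 9848871 (score 316.95) over 1.46 kb. On X the strongest pair lay from 21288971 to 21290064 (score 167.23) and from 21291969 to 21293657 (score 153.35), near equal at 1.09 times. On 3L a peak from 3762630 to 3763897 (score 152.41) was followed after 1.94 kb by one from 3765836 to 3768320 (score 242.32). Arm 2R thus held several of the leading pairs, and a further pair there, from 8259244 to 8260996 (score 141.6) and from 8264929 to 8266584 (score 224.23), ranked seventh.

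The strongest pair of 3R, from 18335824 to 18337575 (score 110.86) and from 18341195 to 18342461 (score 151.63), ranked eighth. The ninth, on 2R from 20862197 to 20865660 and from 20868406 to 20869817, scored 127.17 and 106.36. The strongest of 2L, from 12379352 to 12382573 (score 173.62) and from 12386342 to 12387623 (score 102.2), was the tenth. In these 10 pairs the stronger score was 1.09 to 2.38 times the weaker. Chromosome 4 had 1 mutual pair, from 177385 to 177681 (score 15.56) and from 180999 to 182431 (score 117.86), a difference of 7.57-fold.

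The most unequal pairs set a strong, broad peak beside a narrow one near the bottom of the list. On 2L a peak from 21214942 to 21216997 scored 382.05 and its partner from 21219634 to 21219948 scored 8.17, a 46.8-fold difference. On 2R the pair from 5286750 to 5286992 (score 9.0) and from 5288212 to 5290614 (score 411.26) differed 45.7-fold. Another 2R pair, from 18930556 to 18933779 (score 420.04) and from 18936147 to 18936593 (score 9.44), differed 44.5-fold. The weaker peaks were 242 to 446 bp wide and the stronger ones 2055 to 3223 bp.

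The 10 strongest members all had a far weaker nearest neighbour. These members were picked for their scores, and the median over the arms is 33.7, so a weaker neighbour is largely given by the choice. The 10 members scored 525 to 780 and were 3027 to 5643 bp wide, whereas their nearest neighbours scored 9.22 to 56.3 and were 268 to 1175 bp wide. Their neighbours on the far side scored 10.55 to 405.79. The strongest, on 2R from 14413914 to 14417453, scored 780.35, and its neighbour 1882 bp away scored 19.0. The second, on 3R from 26352677 to 26358197, scored 772.38, and its neighbour at 4479 bp scored 13.26. The third, on 3R from 5923771 to 5927070, scored 725.18, and its neighbour at 1600 bp scored 12.29. These neighbours were 24.4 to 59 times weaker in the 4 leading cases, the fourth being on 2R from 11666868 to 11671101 (score 677.07, neighbour 27.75).

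The fifth, on 3L from 18938980 to 18944623, scored 665.38 beside a neighbour of 22.03. The sixth, on 2R from 20177773 to 20182332, scored 633.3 beside 12.58, and the seventh, on 3L from 1204467 to 1208571, scored 623.64 beside 9.22. The remaining 3 were on 3R from 7276124 to 7280033 (score 587.53, neighbour 14.39), on 3L from 9563277 to 9566304 (score 535.76, neighbour 56.29) and on 3L from 22337805 to 22343148 (score 524.88, neighbour 11.21). Of the 10, 3 were in mutual pairs and 6 stood beside a clustered interval. By arm, 4 were on 3L, 3 on 2R and 3 on 3R.

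**Figure D4:**
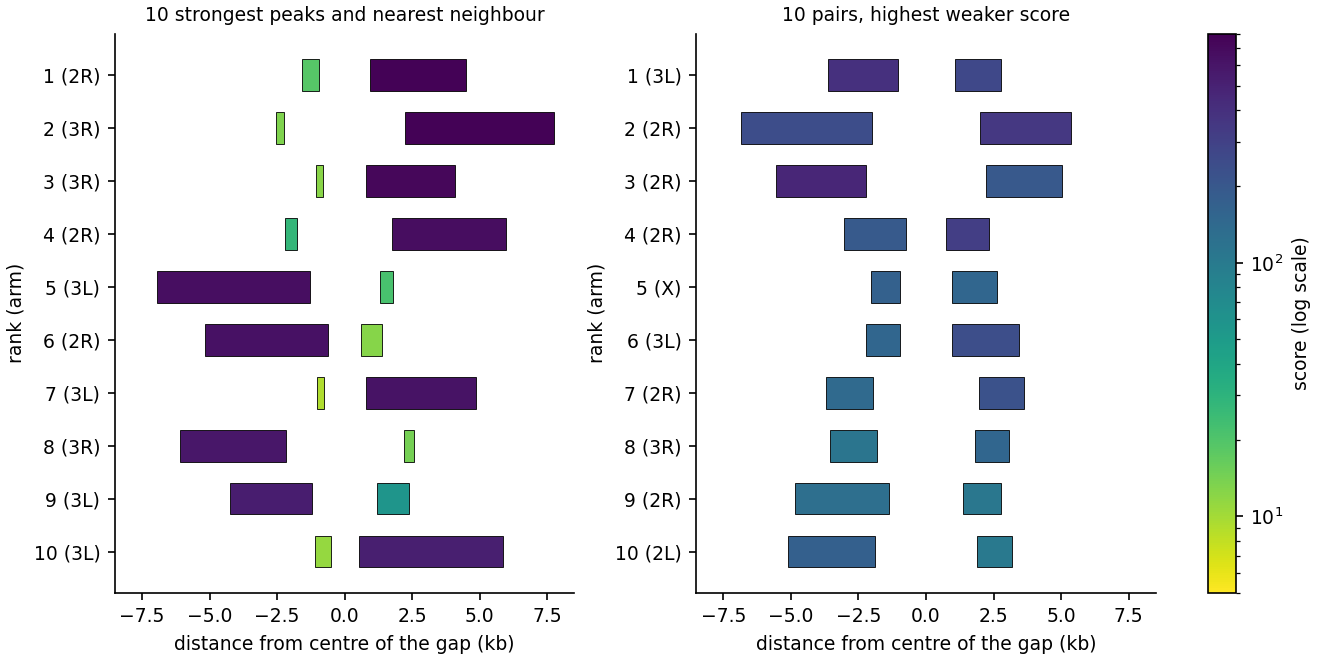
To-scale layout of the 10 strongest members with their nearest neighbour (left) and the 10 mutual pairs with the highest weaker score (right); the x axis is the distance in kb from the centre of the gap, each row is 1 case labelled by rank and arm, and colour gives the score on a log scale. On the left a broad dark peak of 525 to 780 stands beside a narrow pale one of 9.22 to 56.3, and on the right both peaks are broad with scores of at least 102.2.

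For strong members, the near neighbour was weaker than the far-side one at the median, while the shares at 100 or more had overlapping intervals. Of the 204 members scoring at least 100, 37, or 18.1% (13.1 to 24.1%), had a nearest neighbour that also did, and 57, or 27.9% (21.9 to 34.6%), had such a neighbour on the far side. The 11 mutual pairs with both scores at least 100 enter the near share from both ends, so its interval is too narrow. The same holds for the nearest neighbours of strong isolated peaks. The near neighbour scored under 20 in 51.0% (43.9 to 58.0%) and the far one in 34.3% (27.8 to 41.3%), with median scores of 19.4 and 31.8. For 68 of the 204 the near neighbour was the outermost piece of a region with several intervals, with a median score of 13.5. The strongest interval of that region reached 100 in 70.6% of these cases. Gaps were also recomputed over the 2369 peaks scoring above the median of 33.7, of which 1418 scored at least 100. There, 66.9% of strong members had a strong nearest neighbour and 64.8% a strong one on the far side. That filter takes out every neighbour under 20, so it cannot show whether the difference between the near and far sides holds among stronger peaks. Among the 58 members of 300 or more, 63.8% had a near neighbour under 20, against 36.2% on the far side. The 543 isolated peaks scoring at least 100 had a nearest neighbour at that level in 38.3% (34.2 to 42.5%), and in 65% when only peaks above the median were kept.

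For weak members the order was the reverse, within overlapping intervals. Of the 232 members scoring under 20, 78, or 33.6% (27.6 to 40.1%), had a nearest neighbour of at least 100, and 26.0% (20.4 to 32.1%) of the 231 with a far-side neighbour had one there. Isolated peaks under 20 gave near and far shares of 30.4% (26.5 to 34.5%) and 26.1%, and clustered intervals under 20 gave 52.1% and 31.0%. For members of 20 to under 100 the near and far shares were 20.5% and 22.7%.

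Grouped by gap length, strong peaks had a strong nearest neighbour least often when it was closest. Over all intervals of at least 100, the share was 7.15% (5.32 to 9.37%) for gaps of at most 1 kb. In the range of the members it was 10.4% of 67 at 1 to 2 kb, 18.2% of 44 at 2 to 3 kb, 25.4% of 63 at 3 to 4 kb and 20% of 30 at 4 to 5 kb. Beyond 5 kb it was 38.9% of 180 at 5 to 10 kb, and 35.7%, 42% and 33.3% in the wider bins after that. Over all intervals of the arms, whatever their neighbours, 29.8% scored at least 100. The 95% interval was 4.3 to 20.3% at 1 to 2 kb and 31.7 to 46.4% at 5 to 10 kb. A mutual pair with both scores at least 100 enters from both ends. At 1 to 2 kb, 3 such pairs lie behind most of the 7 peaks with a strong nearest neighbour. The intervals treat peaks as separate, so they are too narrow and do not test a difference between bins. At gaps of at most 1 kb the nearest peak is another interval of the same region. For 68 of the 204 strong members it was the outermost piece of a region with several intervals. How far such pieces set these shares was not tested.

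**Figure D5:**
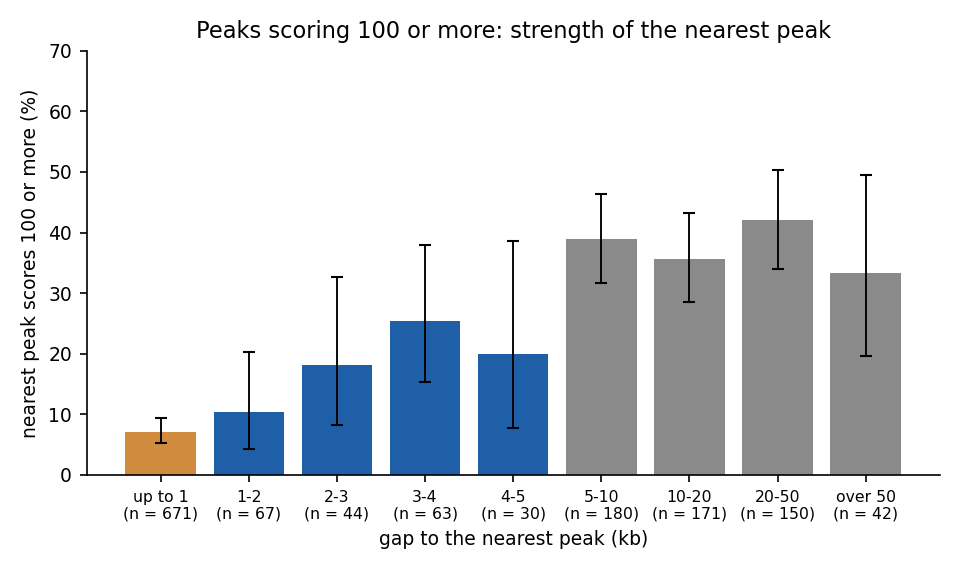
Share of peaks scoring 100 or more whose nearest peak also scores 100 or more (y axis, %), by the gap to that peak (x axis, kb, with the number of peaks); bars start at 0 and error bars are exact 95% binomial intervals, for counting error only. Mutual pairs of strong peaks are counted from both ends, so the error bars are too narrow. The members' bins (blue) run from 10.4% to 25.4%, between 7.15% for gaps of at most 1 kb and 33.3% to 42% beyond 5 kb. Over all intervals of the arms, 29.8% scored at least 100.

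The 202 members beside a clustered interval were somewhat stronger than the paired ones, with a median score of 47.1 against 38.1 and 33.7% against 24.5% at 100 or more. Over all intervals of the arms 29.8% scored at least 100, which lies between these shares, and their difference was not tested. The interval facing them had a median score of 17.6, but the strongest interval of its region had a median of 212. The facing interval was the strongest of its region in 73 cases, or 36.1%. Counted by the strongest interval, 137 of these members, or 67.8%, stood beside a region of at least 100, and among the 68 members that were themselves at least 100 the count was 48, or 70.6%. Among the 134 members under 100 the share was 66.4%. Over all 868 regions of several intervals it was 70.3%.

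Pairs at different gaps did not differ in a steady way. The median fold between the scores was 3.69 for 85 pairs at 1 to 2 kb, 1.99 for 72 at 2 to 3 kb, 4.63 for 61 at 3 to 4 kb and 2.54 for 47 at 4 to 5 kb. The members' median scores in the same bins were 35.7, 39.1, 51.4 and 36.4. Pairs with both scores at least 100 numbered 3, 3, 4 and 1.

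The members were spread over the arms in similar shares. They made up 17.8% of the intervals on 3R (207 of 1165, 95% interval 15.6 to 20.1%), 17.5% on 2R (150 of 855), 15.4% on 3L (151 of 980), 15.3% on 2L (137 of 895) and 14.9% on X (125 of 840, 12.5 to 17.5%). On chromosome 4 there were 2 of 25, or 8% (0.984 to 26%). All these intervals overlap. The median score of members ran from 36.4 on 3L to 41.9 on X among the 5 long arms, and the share of at least 100 from 24.8% on X to 27.5% on 3R.

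Per 1 Mb window the members had a median count of 6 and a highest of 18, and 5 of 123 windows held none. The window with most was on 2L from 6000001 to 7000000, where 18 of 45 intervals were members, with a highest score of 407.15. It was followed by 3R from 9000001 to 10000000, with 17 of 56, and 3R from 21000001 to 22000000, with 15 of 49. In these windows members made up 30.4 to 40% of the intervals, beside 16.2% on the arms as a whole; the windows were picked for their counts. In windows of 100 kb the highest count was 6, and 808 of 1184 held no member.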

How the data were processed

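Su(Hw) ChIP-seq of 2 ChIP and 2 input libraries yielded 1 deposited peak list, whose intervals came from MACS on FlyBase release 5, per the file headers. The submitters' processing notes name the build BDGP5 and the tools BWA, MACS2 and CASAVA (1.7.0.2, 1.7.0.3). Tool roles, pooling, the input used and the threshold were not given in the sources used here. The score column was deposited by the authors, and its statistic is not stated. Starts and ends are printed as deposited; the lowest start is 0, so starts may count from 0.

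Gaps, nearest neighbours, mutual pairs and runs were computed with pandas 2.3.3 and numpy 2.4.6 in Python 3.11.15, intervals with scipy 1.17.1, and plots with matplotlib 3.10.9; the rule was tested on simulated intervals. Shares have exact Clopper-Pearson 95% intervals and medians exact binomial rank intervals. Weak intervals and those split by the caller enter as neighbours. Named regions are the 10 strongest members, the 10 pairs with the highest weaker score, the strongest pair per arm, the 3 most unequal pairs, the width extremes, the runs with most intervals (3, ties by highest score), the 3 densest 1 Mb windows and those next to the limits. Members, groups and score limits were chosen with earlier results of these data known. The gene table at hand was of Release 6, so no peak was assigned to a gene or sequence. Comparisons by gap length, with the far side and by region maximum were added after the list had been examined.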

Additional observations from a re-analysis of the deposited data

Results flagged for a closer look

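Intervals outside the 6 arms entered none of the descriptions above, and some met the same spacing rule. The Het sequences, pieces of assembled centric heterochromatin, had 4 such intervals of 32, or 12.5%, with scores of up to 52.6. The scaffold collection Uextra had 11 of 170, or 6.47%, with a median score of 16.4 and a highest of 45.2. None of the 27 intervals on the sequence U and none of the 4 on the mitochondrial genome met the rule. On the 6 arms the share was 16.2%, and a difference from it was not tested.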

How the results depend on the processing

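Lower gap limits of 500 and 2000 bp, upper limits of 4 and 10 kb, peaks scoring above the median alone, leaving out the lowest 10% of scores, and midpoint distance in place of the gap were tried. The number of members was 1355 with 10 kb, 492 above the median and 2025 by midpoints. Their share of intervals was 22.4%, 11% and 13.2% with limits of 500 bp, 2000 bp and 4 kb, and 28.5%, 20.8% and 42.5% with 10 kb, above the median and by midpoints. The median score was 125 above the median and 46.8 without the lowest 10%, and the median width 1569, 818 and 868 bp above the median, without the lowest 10% and by midpoints. Members with a member as nearest neighbour made up 73.8%, and 96.1% and 90.1% above the median and by midpoints. Pairs with both scores at least 100 made up 7.71% with 10 kb, 37.6% above the median and 2.08% by midpoints, and with score limits of 50 and 200, added after the data had been seen, 14.3% and 0.755%. The median fold was 1.93 above the median and 11 by midpoints, and the correlation of scores in pairs reversed to 0.195 above the median and was -0.322 with 500 bp and -0.566 by midpoints. Strong members with a strong nearest neighbour (18.1%) made up 27.9% with 10 kb, 66.9% above the median and 6.75% by midpoints, and 30.7% and 6.48% with score limits of 50 and 200. Midpoint distance also admits intervals whose edges are under 1 kb apart. The causes of the other changes were not tested. No replicate could be left out and no depth was known. No paired analysis was possible because the list holds no value per library. Sequence features were not analysed here, as no genome of release 5 was used.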

Other observations

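Members were not fewer next to the centromere relative to the peaks there, a comparison chosen after the values were seen. In the 10% of each large arm's occupied span nearest the centromere, 56 of 305 intervals were members, or 18.4% (exact 95% interval 14.2 to 23.2%), beside 714 of 4430, or 16.1% (15 to 17.2%), in the rest of those arms. The arms went both ways, with 32.6% on 3L and 25.6% on 2R, and 10.4% on 2L.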
